A study of Homo sapiens with 24 samples.

Results

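The genes of glycolysis, glycogen turnover and lactate transport were examined in MDA686TU, an established human head and neck squamous carcinoma cell line. The set was a named list of 33 symbols that were matched by Ensembl identifier to rows of the raw count table. All 33 were found among 60617 genes, and all 33 were among the 15476 genes expressed highly enough to be tested. The rule lists the members by pathway and uses no measured value, although the list was drawn up with earlier results of these data known. Total RNA was taken after 24 h from cells left without treatment, cells given 40 µM EGCG, cells given 15 µM resveratrol, and cells given both agents at these doses. Each group held 6 replicates. EGCG is the main catechin of green tea and resveratrol is a stilbene polyphenol of grapes and berries. The solvent of EGCG was water, and the resveratrol stock was made in DMSO. Whether the control received DMSO is not given in the sources used here, so resveratrol and its solvent cannot be told apart. A single cell line was sequenced, and whether the replicates came from separate cultures on separate days is not stated, so the p-values measure only the spread between these samples.

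Glycolysis splits glucose into pyruvate in a chain of cytosolic steps, and most steps can be carried out by more than one isoform, encoded by separate genes with different tissue distributions. Pyruvate is then either reduced to lactate, which leaves the cell through monocarboxylate transporters, or oxidized in mitochondria by pyruvate dehydrogenase, which the PDK kinases switch off. Glucose can also be stored as glycogen through phosphoglucomutase, glycogen synthase and branching enzyme, and released again by phosphorylase. Squamous carcinomas are known for high glucose uptake and lactate output, and many genes of the pathway are targets of hypoxia-inducible factor and MYC.

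Library totals ranged from 7034872 to 11735574 counts, and no library stood apart in depth. The 3 libraries numbered 1 to 3 of each group had mitochondrially encoded genes at 0.249% to 0.326% of counts, against 0.448% to 0.775% in those numbered 4 to 6, so the values of the 2 sets are given for the called changes and ratios described here that differed between them by more than 1.5 times. Squamous markers were high, with median values from 1122 to 1452 FPKM for KRT5, KRT6A and KRT14. The leukocyte markers PTPRC, CD3E and LYZ were at a median of 0. Of the fibroblast markers, COL1A1 lay between 10.2 and 20.05 FPKM, whereas DCN and PDGFRB did not exceed 0.0364 FPKM. In bulk RNA, fewer cells that express a gene and less RNA of it per cell cannot be told apart. The 33 genes made up a median of 1.43% of all counts in the control, 1.51% after EGCG, 1.29% after resveratrol and 1.35% after the combination.

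In control cells the enzymes of the later steps of glycolysis had the highest levels per length. On the scale of fragments per kilobase per unit of sequencing depth (FPKM), GAPDH, the dehydrogenase that makes the first high-energy phosphate bond, had a median of 1359.9 FPKM. It was followed by TPI1, which interconverts the triose phosphates, at 460.2 FPKM, the enolase ENO1 at 393 FPKM, the pyruvate kinase PKM at 337 FPKM and the mutase PGAM1 at 257 FPKM. The ranges of these 5 genes over the 6 control libraries did not overlap one another. Further down the order, 12 of the 32 neighbouring pairs had overlapping ranges, for example PGK1 and PYGB at 77.6 FPKM and 74.7 FPKM. The lowest members were the glucose transporter SLC2A3 at 0.327 FPKM and the kinase PDK3 at 0.341 FPKM, whose ranges overlapped.

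Isoform pairs ranged from similar levels of both members to pairs dominated by 1 member. LDHA made up 56.8% of LDHA plus LDHB, HK2 47.2% of HK2 plus HK1, and ALDOC 37.1% of ALDOC plus ALDOA in FPKM in the median control library. ENO2 made up only 0.907% of both enolases, SLC2A3 0.468% of both glucose transporters and SLC16A3 3.54% of both lactate carriers. The low level of ALDOA, the muscle and general form of aldolase, is uncertain: 42.8% of its exon bases are also annotated to another gene on the same strand, which held a mean of 11.2 counts, and how reads shared by 2 genes were counted is not given in the sources used here. LDHB likewise shares 33.4% of its exon bases with a gene listed at 0 counts. Genes named as TPI1 and GAPDH pseudogenes held counts equal to 19.6% and 9.04% of those of their parents.

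EGCG raised a group of these genes and lowered none. With edgeR's quasi-likelihood test, where a gene was called at a Benjamini-Hochberg adjusted p under 0.1 and a p under 0.05, 9 of 33 members were higher and 0 lower than in the control. Over all genes tested, 0.905% were called higher and 0.859% lower. The 9 were PDK1, PGM1, ENO2, ALDOC, PGK1, LDHA, SLC2A1, GPI and PGAM1, with log2 fold changes from 0.13 to 0.43. At an unadjusted p under 0.05 there were 15 higher and 0 lower, against 1570 of all 15476 genes in either direction. DESeq2 called 9 higher and 0 lower. The median log2 fold change of the 33 was 0.073, against 0.00090 over all genes. From replicates 1 to 3 alone 3 members were called and from replicates 4 to 6 alone 6, and the 9 had a positive sign in both sets.

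Resveratrol moved more of the members, in both directions. It lowered 15 and raised 10 of the 33, while 28% of all tested genes were called lower and 28.9% higher. The members' count of 10 was close to this background and that of 15 was above it. Their median log2 fold change was -0.12, against 0.0037 over all genes. Among those lowered were LDHA, GBE1, LDHB, PGK1, ENO1, GAPDH, TPI1, PGAM1, PKM and PFKP. ALDOC, ENO2, PGM1, SLC16A3, PDK3 and PFKFB4 were among those raised. The combination lowered 14 members and raised 12, against 29.9% of all tested genes lower and 29.9% higher, with a median of 0.016. With library size alone as scaling, the split became 14 higher and 14 lower with resveratrol and 17 higher and 11 lower with the combination. This scaling shifts the median of all genes to 0.092 for resveratrol and 0.081 for the combination. The shares of all genes called with it were not determined, so these counts cannot be set against a background. No called member changed sign.

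**Figure D1:**
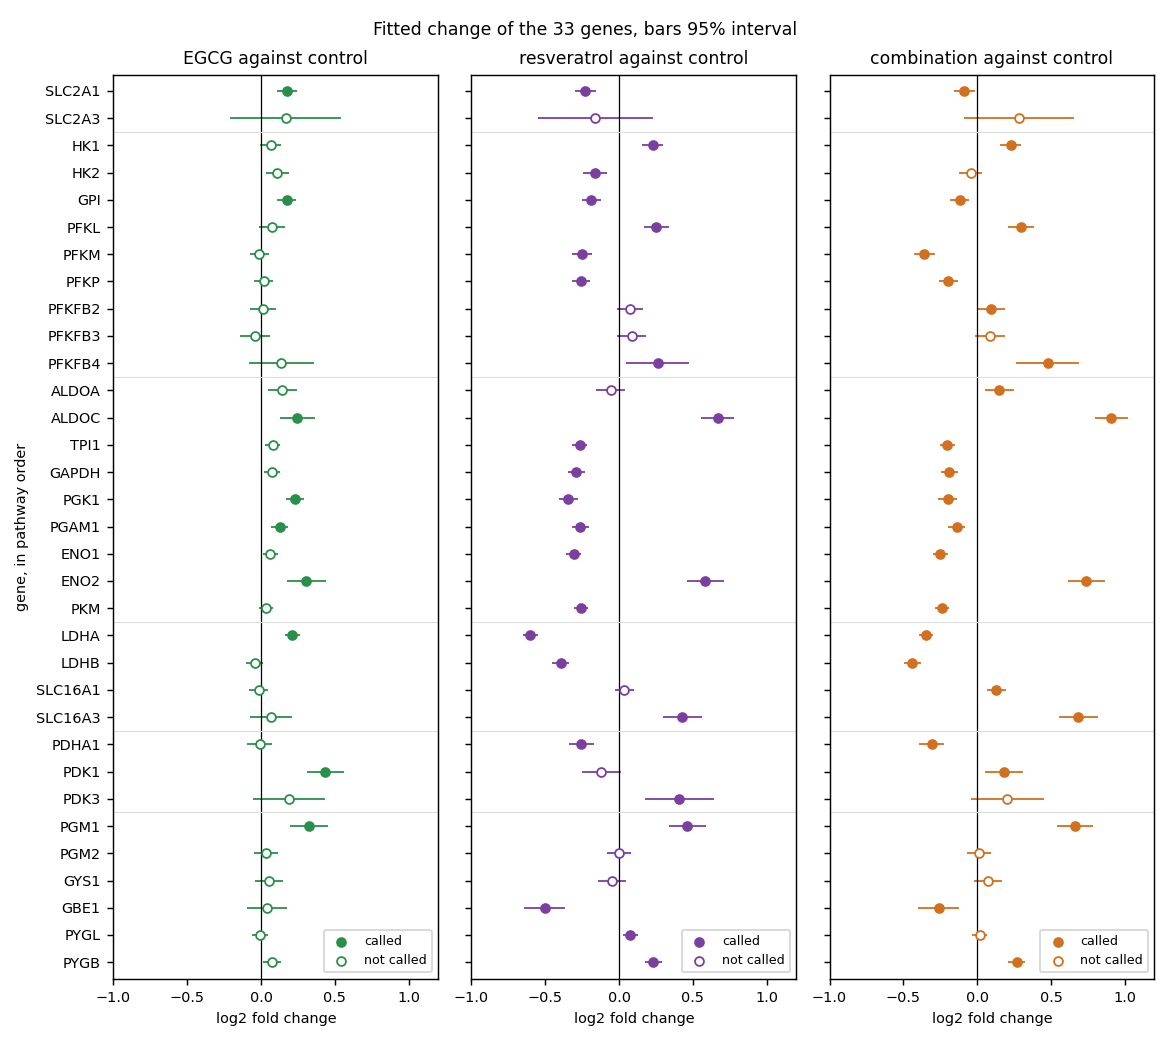
Fitted log2 fold change (x axis) of each of the 33 genes (y axis, in pathway order) against the control, in 1 panel for each treatment. Bars are 95% intervals from the edgeR fit and filled points are called. With EGCG the 9 filled points lie to the right of 0, whereas with resveratrol and the combination LDHA and LDHB lie to the left and ALDOC and ENO2 to the right.

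The first steps of the pathway take up and trap glucose. SLC2A1 (GLUT1), the main glucose transporter of epithelial tumours, rose with EGCG and fell with resveratrol. Its log2 fold changes were 0.18 ± 0.035 (adjusted p = 0.0028) with EGCG, -0.23 ± 0.035 (adjusted p = 7.7e-07) with resveratrol and -0.087 ± 0.035 (adjusted p = 0.032) for both agents in edgeR's quasi-likelihood fit, in which ± gives the standard error. Neither its EGCG libraries (3170.2 to 3408 normalized counts) nor its resveratrol libraries (2405 to 2526) overlapped the control (2756 to 3138), but those of the combination did. The call for the combination was lost without combination replicate 6 (-0.063), without control replicate 5 (-0.047) and with library size alone (-0.0040). SLC2A3 (GLUT3) had few counts, with medians between 16.6 and 22.6 in the 4 groups, and was not called in any treatment. The 95% interval of its change with the combination ran from -0.091 to 0.65.

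Both hexokinases trap glucose as glucose 6-phosphate. HK1, the constitutive form, rose by 0.23 on the log2 scale with resveratrol and by 0.23 with the combination. HK2, the inducible form of muscle and tumours, fell by 0.16 with resveratrol and was at -0.045 with the combination, which was not called. HK2's call with resveratrol was lost with library size alone (-0.076). GPI, which isomerizes the sugar phosphate and is also secreted as a cytokine, rose by 0.17 with EGCG and fell by 0.19 with resveratrol and 0.12 with the combination, the last not called with library size alone (-0.035).

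The 3 subunit genes of phosphofructokinase, the committed step, did not move together. PFKL, the liver type, rose with resveratrol by 0.25 ± 0.042 (adjusted p = 4.5e-06) and with the combination by 0.30 ± 0.042 (adjusted p = 1.9e-07) on the log2 scale in edgeR. PFKM, the muscle type, and PFKP, the platelet type, both fell with resveratrol, by 0.25 and 0.26, and with the combination, by 0.36 and 0.20. In every one of these 6 comparisons the treated and control libraries did not overlap, but how common this was among all genes was not determined. EGCG alone left the 3 genes between -0.011 and 0.073, with none called. Part of PFKM's exons, 7.12% of bases, overlaps SENP1 on the opposite strand, and the strand setting of the counting is not given in the sources used here.

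The PFKFB genes encode the enzymes that make and break fructose 2,6-bisphosphate, the main activator of phosphofructokinase. PFKFB4 had normalized counts from 61.8 to 82.5 (median 79.5) in the control, from 71.5 to 102 (median 80.4) with EGCG, from 78.3 to 109 (median 88.1) with resveratrol and from 92.5 to 124 (median 96.0) with the combination. Its combination libraries lay above those of the control, and its EGCG and resveratrol libraries overlapped them. The log2 fold change was 0.26 ± 0.11 (adjusted p = 0.038) with resveratrol and 0.48 ± 0.10 (adjusted p = 2.0e-04) with the combination by edgeR. The resveratrol call was lost without control replicate 2 (0.22), control replicate 3 (0.21) or resveratrol replicate 4 (0.20). PFKFB3, the isoform with the highest kinase activity relative to its phosphatase activity, had counts from 465 to 514 (median 476) in the control, from 433 to 515 (median 457) with EGCG, from 488 to 537 (median 505) with resveratrol and from 447 to 550.5 (median 517) with the combination. These 4 ranges overlapped and PFKFB3 was not called in any treatment. PFKFB2 rose by 0.10 with the combination, a call that was lost without combination replicate 6 (0.063), control replicate 2 (0.082) or control replicate 3 (0.074) and with DESeq2 (0.094).

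Aldolase splits fructose 1,6-bisphosphate into the triose phosphates. ALDOC (ENSG00000109107, chromosome 17, 28573115 to 28576948, minus strand), the isoform best known from brain, had normalized counts from 314 to 371 (median 343) in the control, from 376 to 432 (median 407) with EGCG, from 503 to 595 (median 536) with resveratrol and from 586 to 751 (median 623) with the combination. No treated library overlapped the control. With log2 fold changes of 0.25 ± 0.057 (adjusted p = 0.017), 0.67 ± 0.055 (adjusted p = 1.1e-12) and 0.91 ± 0.055 (adjusted p = 1.4e-16) for EGCG, resveratrol and the combination in edgeR, ALDOC had the largest called increase of the 33 genes with resveratrol and with the combination. ALDOA had counts from 743 to 883 (median 822) in the control, from 814 to 978 (median 915) with EGCG, from 717 to 856 (median 792) with resveratrol and from 841 to 977 (median 909) with the combination. Its ranges overlapped the control in all 3 treatments, and it was called with the combination (0.15 ± 0.048 (adjusted p = 0.0077)) but not with resveratrol (-0.058) or EGCG (0.14).

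The abundant enzymes from TPI1 to PKM fell with resveratrol by similar amounts. Their log2 fold changes were -0.27 for TPI1, -0.29 for GAPDH, -0.34 for PGK1, -0.26 for PGAM1, -0.31 for ENO1 and -0.26 for PKM. With the combination the same genes, in that order, were at -0.20, -0.19, -0.20, -0.14, -0.25 and -0.24. All 12 values were called, and the libraries of both treatments lay below the control for all 6 genes. Of all tested genes, 28% were called lower with resveratrol and 29.9% with the combination. The share of all genes with such a separation was not determined. PGAM1 was not called for the combination with library size alone (-0.055). With EGCG, PGK1 and PGAM1 rose while TPI1, GAPDH, ENO1 and PKM were between 0.031 and 0.079 and were not called.

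PGK1, the kinase that makes the first ATP of the pathway, had the largest response to EGCG among these 6 genes. Its normalized counts ran from 3486 to 3974 (median 3684) in the control, from 4177 to 4533 (median 4385) with EGCG, from 2835 to 3062 (median 2869.6) with resveratrol and from 3055 to 3328 (median 3237) with the combination. The EGCG libraries lay above all control libraries, and those of resveratrol and the combination lay below. The edgeR log2 fold change was 0.23 ± 0.031 (adjusted p = 5.7e-06) with EGCG, -0.34 ± 0.031 (adjusted p = 9.4e-12) with resveratrol and -0.20 ± 0.031 (adjusted p = 9.7e-07) with the combination.

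The enolases diverged. ENO1 (ENSG00000074800, chromosome 1, 8861000 to 8879190, minus strand), the general form, had normalized counts from 16979 to 18395 (median 17874) in the control, from 17449 to 19400.3 (median 18544) with EGCG, from 14210.4 to 14533 (median 14363) with resveratrol and from 14162 to 15389 (median 15096) with the combination. The control and EGCG ranges overlapped, and the resveratrol and combination libraries were all lower. ENO2 (ENSG00000111674, chromosome 12, 6913745 to 6923698, plus strand), the neuronal form, had counts from 116 to 143 (median 134) in the control, from 154 to 175 (median 166) with EGCG, from 189 to 212 (median 198) with resveratrol and from 195 to 239 (median 228) with the combination. Every treated group lay above the control here. ENO2 rose by 0.31 ± 0.065 (adjusted p = 0.0066) with EGCG, 0.58 ± 0.062 (adjusted p = 6.0e-10) with resveratrol and 0.74 ± 0.062 (adjusted p = 1.4e-12) with the combination on the log2 scale, while ENO1 fell by 0.31 and 0.25 with the last 2 (edgeR).

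The agents moved lactate dehydrogenase A in opposite directions. LDHA (ENSG00000134333, chromosome 11, 18394560 to 18408425, plus strand) encodes the subunit that favours reduction of pyruvate to lactate. Its normalized counts ran from 7731 to 8088 (median 7981) in the control, from 8994 to 9516 (median 9144) with EGCG, from 5125 to 5441 (median 5191) with resveratrol and from 5930.4 to 6474 (median 6234) with the combination. The 4 groups did not overlap one another, with EGCG highest and resveratrol lowest. The edgeR log2 fold change was 0.21 ± 0.024 (adjusted p = 1.9e-07) with EGCG, -0.60 ± 0.024 (adjusted p = 2.1e-21) with resveratrol and -0.34 ± 0.024 (adjusted p = 8.6e-15) with the combination. LDHB (ENSG00000111716, chromosome 12, 21635342 to 21757857, minus strand), the heart-type subunit, had counts from 2868 to 3073 (median 3019) in the control, from 2803 to 3058 (median 2860.2) with EGCG, from 2206 to 2365 (median 2252) with resveratrol and from 2148 to 2297 (median 2193) with the combination. The control and EGCG libraries of LDHB overlapped, and so did those of resveratrol and the combination, with the latter pair lower. LDHB changed by -0.043 ± 0.029 (adjusted p = 0.66) with EGCG, which was not called, and fell by 0.40 ± 0.029 (adjusted p = 5.2e-14) with resveratrol and 0.44 ± 0.029 (adjusted p = 2.4e-15) with the combination.

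In 6 pairs of isoforms or paralogues 1 gene was called higher with EGCG and its partner was not called. A called change in the ratio of the 2 genes, given below, was found for LDHA to LDHB, ENO2 to ENO1 and PGM2 to PGM1. The ratios ALDOC to ALDOA (0.10), PDK3 to PDK1 (-0.23) and SLC2A3 to SLC2A1 (-0.040) were not called, so those partners are not shown to differ. Shown are 3 of the 6 pairs, namely both lactate dehydrogenases, both enolases and, because PDK1 had the largest change with EGCG, PDK1 and PDK3. For each gene the 250 bases before the RefSeq start are given. They are from GRCh38.p14, written 5′ to 3′ on the gene's strand, and lie at chr11:18394313-18394562 for LDHA (plus strand), chr12:21657843-21658092 for LDHB (minus), chr1:8878687-8878936 for ENO1 (minus), chr12:6914330-6914579 for ENO2 (plus), chr2:172555123-172555372 for PDK1 (plus) and chrX:24465036-24465285 for PDK3 (plus). Capitals mark matches to the core of the hypoxia response element, ACGTG or GCGTG, on either strand.
LDHA: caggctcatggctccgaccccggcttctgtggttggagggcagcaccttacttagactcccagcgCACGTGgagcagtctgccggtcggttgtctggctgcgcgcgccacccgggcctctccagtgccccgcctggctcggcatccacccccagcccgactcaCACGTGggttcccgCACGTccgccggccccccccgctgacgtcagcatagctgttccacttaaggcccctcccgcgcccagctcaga
LDHB: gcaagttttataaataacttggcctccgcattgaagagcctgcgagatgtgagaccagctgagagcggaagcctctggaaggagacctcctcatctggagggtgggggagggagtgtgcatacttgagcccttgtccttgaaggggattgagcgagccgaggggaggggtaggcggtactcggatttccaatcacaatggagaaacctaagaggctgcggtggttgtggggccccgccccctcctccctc
ENO1: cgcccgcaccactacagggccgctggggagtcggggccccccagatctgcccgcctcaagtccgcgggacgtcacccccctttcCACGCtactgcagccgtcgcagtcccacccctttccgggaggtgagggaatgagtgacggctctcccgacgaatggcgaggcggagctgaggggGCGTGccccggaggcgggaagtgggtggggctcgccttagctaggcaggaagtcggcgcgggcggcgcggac
ENO2: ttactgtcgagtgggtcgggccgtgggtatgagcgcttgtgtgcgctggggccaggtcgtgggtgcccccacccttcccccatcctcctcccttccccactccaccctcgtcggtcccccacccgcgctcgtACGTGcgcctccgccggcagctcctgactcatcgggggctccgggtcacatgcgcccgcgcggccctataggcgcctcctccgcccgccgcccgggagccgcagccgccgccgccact
PDK1: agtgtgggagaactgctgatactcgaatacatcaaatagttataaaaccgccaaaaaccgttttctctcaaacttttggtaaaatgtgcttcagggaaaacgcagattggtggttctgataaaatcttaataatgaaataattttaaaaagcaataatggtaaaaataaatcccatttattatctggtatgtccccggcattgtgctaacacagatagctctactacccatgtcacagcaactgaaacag
PDK3: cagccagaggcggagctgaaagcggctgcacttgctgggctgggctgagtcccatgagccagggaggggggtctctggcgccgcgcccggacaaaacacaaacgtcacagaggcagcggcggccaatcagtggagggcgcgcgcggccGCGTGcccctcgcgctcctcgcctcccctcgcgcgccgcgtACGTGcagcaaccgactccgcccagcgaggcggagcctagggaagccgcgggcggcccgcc
LDHA had 5 matches, 2 of its runs being the palindrome CACGTG, which matches on both strands and is also the E-box motif searched. ENO1 had 2 matches, ENO2 had 1, PDK3 had 2, and LDHB and PDK1 had 0. Of the other pairs with this pattern, ALDOC had 5 matches and ALDOA 1, whereas PGM1 had 0 and PGM2 had 4. ALDOC and PGM2 each held 1 CACGTG, which was counted as 2 matches. SLC2A1 (partner SLC2A3) had 0. Only 1 window per gene was searched, that of the first RefSeq start listed. In these windows the gene called with EGCG held more matches than its partner in 2 of the 5 pairs with both promoters and fewer in 3. Such matches are common: 43.2% of 35116 promoters of this length held at least 1, and 18 of the 30 members with a RefSeq promoter did. CACGTG was in 6.34% of all promoters and in 4 of 30 members, and TGACNNNGC, the core of the antioxidant response element, in 10.9% and 5 of 30. A match is a description of letters and shows no binding.

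**Figure D2:**
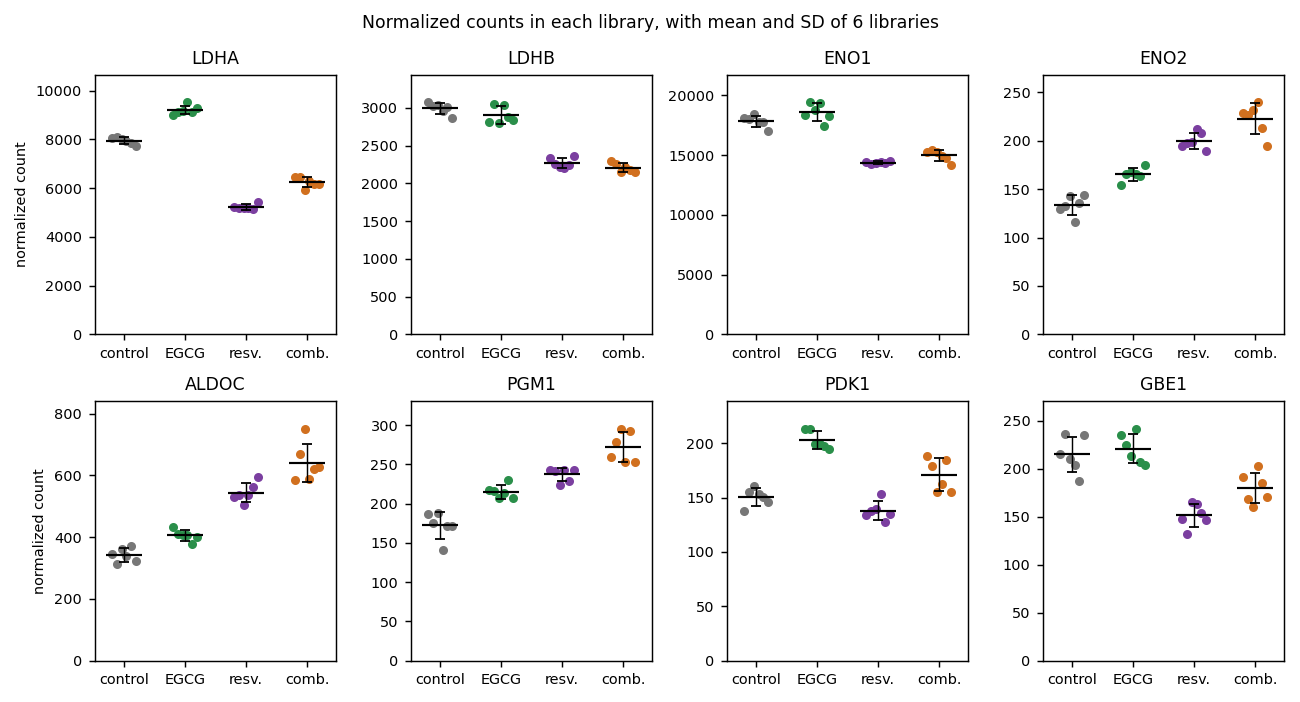
Normalized counts (y axis, from 0) of 8 genes in each of the 24 libraries, by group (x axis), with the mean and SD of 6 libraries. LDHA and PDK1 are highest with EGCG, LDHB, ENO1 and GBE1 are lower with resveratrol than in the control, and ENO2, ALDOC and PGM1 are highest with the combination.

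Lactate leaves the cell through SLC16A1 (MCT1), which also imports it, and SLC16A3 (MCT4), the carrier typical of cells with high lactate output. SLC16A3 had normalized counts from 137 to 161 (median 154) in the control, from 133 to 177 (median 164) with EGCG, from 191 to 224 (median 203) with resveratrol and from 219 to 257 (median 249) with the combination. Its EGCG libraries overlapped the control, and all resveratrol and combination libraries were above it. SLC16A3 rose by 0.43 ± 0.065 (adjusted p = 1.0e-06) with resveratrol and 0.68 ± 0.065 (adjusted p = 2.6e-11) with the combination on the log2 scale, and was at 0.067 with EGCG (edgeR). SLC16A1 had counts from 2415 to 2531 (median 2461) in the control, from 2325 to 2566 (median 2417) with EGCG, from 2439 to 2562 (median 2528) with resveratrol and from 2446 to 2892 (median 2701) with the combination, and all treated ranges overlapped the control. It was called with the combination only, at 0.13 ± 0.032 (adjusted p = 7.1e-04). CSNK1D, on the opposite strand and with more counts, overlaps 5.22% of the exon bases of SLC16A3.

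At the entry of pyruvate into mitochondria, PDK1 was the member that EGCG changed most. PDK1 (ENSG00000152256, chromosome 2, 172555373 to 172608669, plus strand) phosphorylates and inactivates pyruvate dehydrogenase. Its normalized counts were from 137 to 161 (median 152) in the control, from 194 to 213 (median 199) with EGCG, from 128 to 153 (median 136) with resveratrol and from 155 to 188 (median 171) with the combination. The EGCG libraries were above every other group, the resveratrol range overlapped the control, and the combination range overlapped the control while lying above resveratrol. The edgeR log2 fold change was 0.43 ± 0.062 (adjusted p = 2.1e-05) with EGCG, -0.12 ± 0.065 (adjusted p = 0.13) with resveratrol and 0.18 ± 0.064 (adjusted p = 0.016) with the combination. PDK3, a PDK isoform with little expression here, had counts from 33.2 to 44.3 (median 40.3) in the control, from 38.8 to 52.6 (median 45.2) with EGCG, from 40.1 to 62.0 (median 51.8) with resveratrol and from 39.7 to 52.6 (median 44.6) with the combination. All of these ranges overlapped, and PDK3 was called with resveratrol only (0.41 ± 0.12 (adjusted p = 0.0035)). PDHA1, the catalytic subunit that the kinases act on, fell by 0.26 with resveratrol and 0.31 with the combination, and was at -0.011 with EGCG.

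Among the glycogen genes, PGM1 rose in all 3 treatments. PGM1 (ENSG00000079739, chromosome 1, 63593411 to 63660245, plus strand) interconverts glucose 1-phosphate and glucose 6-phosphate. It had normalized counts from 141 to 188 (median 173) in the control, from 207 to 229.8 (median 215) with EGCG, from 224 to 243 (median 242) with resveratrol and from 253 to 295 (median 269) with the combination, and each treated group lay above the control. Log2 fold changes in edgeR were 0.32 ± 0.062 (adjusted p = 0.0023) with EGCG, 0.46 ± 0.061 (adjusted p = 6.0e-08) with resveratrol and 0.66 ± 0.061 (adjusted p = 1.2e-11) with the combination. The paralogue PGM2, which acts mainly on pentose phosphates, had counts from 534 to 587 (median 554) in the control, from 539.7 to 604 (median 565) with EGCG, from 518 to 606 (median 554) with resveratrol and from 541 to 583 (median 563) with the combination. These ranges overlapped in all 4 groups, and its changes of 0.032, 0.0015 and 0.014 were not called, with 95% intervals that stayed within -0.079 and 0.11.

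GBE1 (ENSG00000114480, chromosome 3, 81489703 to 81761645, minus strand), the branching enzyme, fell with resveratrol and with the combination. Its counts ran from 188 to 236 (median 213) in the control, from 204 to 242 (median 219) with EGCG, from 132 to 165 (median 150.4) with resveratrol and from 160.4 to 203 (median 177) with the combination. The resveratrol libraries lay below all control libraries, and those of the combination overlapped both. GBE1 fell by 0.50 ± 0.069 (adjusted p = 1.4e-07) with resveratrol and 0.26 ± 0.069 (adjusted p = 0.0016) with the combination on the log2 scale in edgeR, and was at 0.039 with EGCG. GYS1, the glycogen synthase outside liver, was not called in any treatment and lay between -0.049 and 0.072. Of the phosphorylases, PYGB (brain type) rose by 0.23 with resveratrol and 0.27 with the combination. PYGL (liver type), the more abundant of the pair, rose by 0.076 with resveratrol and was at 0.016 with the combination, not called.

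Some called changes against the control differed in size between replicates 1 to 3 and replicates 4 to 6, in that order, while keeping their sign. With EGCG these were ALDOC (0.30 and 0.19 on the log2 scale) and PGM1 (0.22 and 0.44). With resveratrol they were PGM1 (0.37 and 0.56) and GPI (-0.23 and -0.15). With the combination they were GBE1 (-0.34 and -0.17), PFKFB4 (0.61 and 0.35), HK1 (0.28 and 0.17), PFKFB2 (0.12 and 0.071), SLC16A1 (0.069 and 0.19) and SLC2A1 (-0.014 and -0.16).

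Because both genes of a pair were counted in the same library, their ratio does not depend on the scaling between libraries. The pairs were isoforms of a step, apart from the paralogues PGM2 and PGM1, which differ in their main substrate. The log2 ratio of raw counts was compared for 13 pairs in 5 comparisons, 65 tests in all, by two-sided exact permutation of 6 libraries against 6, for which the smallest possible p is 0.00216. At a Benjamini-Hochberg adjusted p under 0.1 over the 65 tests, 4 ratios differed from the control after EGCG, 10 with resveratrol and 10 with the combination. Of all single genes tested, 1.76%, 56.9% and 59.8% were called in these comparisons. Ratios of other gene pairs were not tested, so such changes are not shown to be particular to these pairs. All calls with an exact p of 0.00216 were complete separations of the groups.

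With EGCG, LDHA gained on LDHB by 0.25 ± 0.021 log2 units (exact permutation p = 0.00216, 6 against 6 libraries). In FPKM its median share of the pair went from 56.8% to 61.1%. Resveratrol moved it the other way, by -0.21 ± 0.014, to a share of 53.2%. With the combination the share was 58.4% and the ratio was above the control by 0.093 ± 0.011. The 4 groups did not overlap in this ratio, and replicates 1 to 3 alone gave a difference of 0.087 with the combination, against 0.099 for replicates 4 to 6. EGCG also lowered PGM2 relative to PGM1 by 0.30 ± 0.079 without overlap, raised ENO2 relative to ENO1 by 0.25 ± 0.060 and lowered PYGL relative to PYGB by 0.080 ± 0.028, the last 2 with overlap (exact permutation p = 0.00433 and 0.0195). Replicates 1 to 3 and 4 to 6 gave -0.19 and -0.41 for PGM2 to PGM1 and -0.10 and -0.058 for PYGL to PYGB.

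With resveratrol, the gene with the lower control level per length gained in 9 of the 10 called pairs, HK2 being the exception. This count is descriptive, because the control libraries enter both the level and the change, and PFKL was the lower gene of both phosphofructokinase pairs. ENO2 gained on ENO1 by 0.89 ± 0.057 log2 units and went from 0.907% to 1.67% of the pair. ALDOC gained on ALDOA by 0.73 ± 0.065 and went from 37.1% to 50.2%. SLC16A3 gained on SLC16A1 by 0.39 ± 0.052, from 3.54% to 4.55%. In the same comparison PFKP and PFKM lost to PFKL by 0.51 ± 0.029 and 0.50 ± 0.053, HK2 lost to HK1 by 0.39 ± 0.029, and PGM2 lost to PGM1 by 0.47 ± 0.083, where replicates 1 to 3 and 4 to 6 gave -0.31 and -0.64. PDK3 gained on PDK1 by 0.52 ± 0.13, the 1 call among the 10 in which the groups overlapped.

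The combination gave differences of 0.99 ± 0.058 for ENO2 to ENO1, 0.75 ± 0.070 for ALDOC to ALDOA, 0.55 ± 0.064 for SLC16A3 to SLC16A1, -0.65 ± 0.053 for PFKM to PFKL and -0.65 ± 0.087 for PGM2 to PGM1. PFKFB4 gained on PFKFB3 by 0.38 ± 0.10, where replicates 1 to 3 and 4 to 6 gave 0.51 and 0.26. HK2 lost to HK1 by 0.27 ± 0.048, where replicates 1 to 3 alone gave -0.37 and replicates 4 to 6 gave -0.17. Each of these differences was a complete separation from the control. In 8 of the 10 pairs called with the combination, the gene with the lower control level per length gained. PDK3 to PDK1 was at 0.014 ± 0.12 with the combination, and PFKFB2 to PFKFB3 at 0.012 ± 0.054, neither of which was called.

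**Figure D3:**
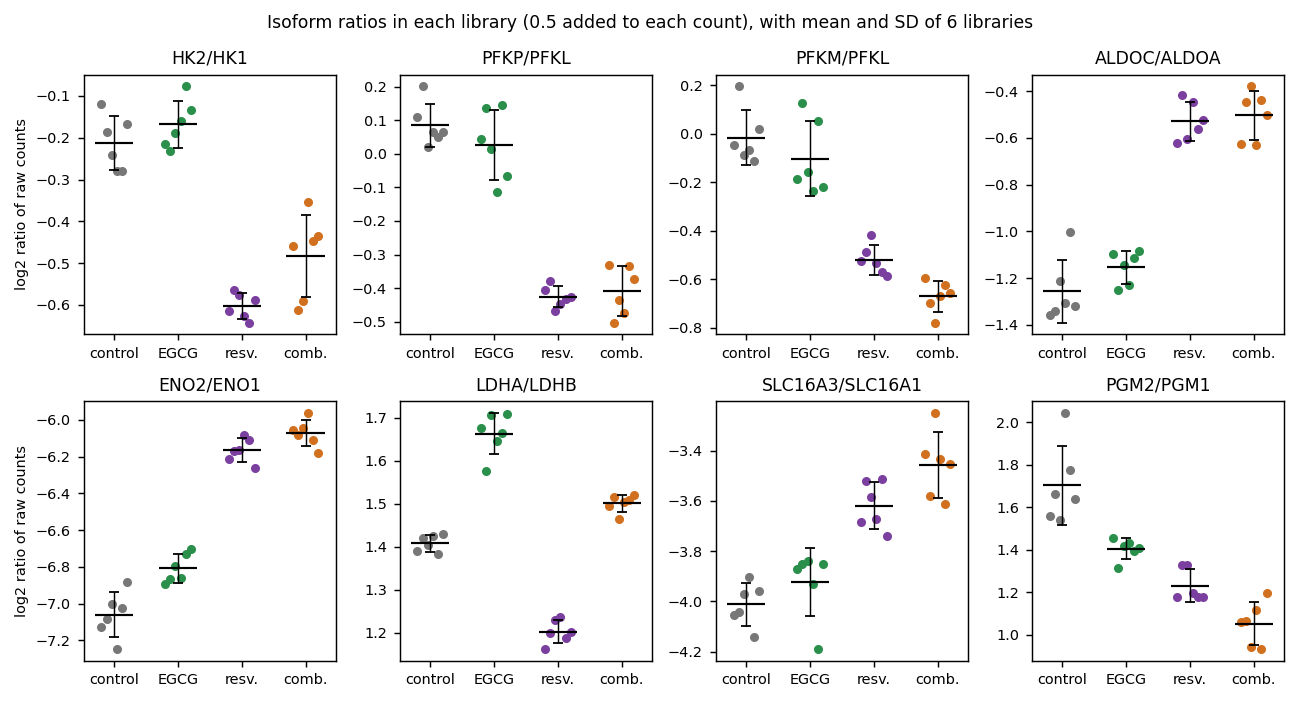
Log2 ratio of raw counts of 2 isoforms of the same step, or of the paralogues PGM2 and PGM1 (y axis), in each of the 24 libraries, by group (x axis), for 8 pairs, with the mean and SD of 6 libraries. In the LDHA to LDHB panel the 4 groups occupy separate ranges, with EGCG highest and resveratrol lowest, whereas in the ENO2 to ENO1 and ALDOC to ALDOA panels resveratrol and the combination sit together above the control.

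EGCG was tested in 2 settings in this design, against the control and, as the combination against resveratrol alone, in cells that also had resveratrol. These comparisons share no libraries. Beside resveratrol, EGCG raised 13 members and lowered 1, against 4.01% of all tested genes higher and 3.86% lower, with a median of 0.096. The sign was the same in both settings for 29 of 33 members (87.9%), against 60.4% of all tested genes. Across the 33 members, which are not independent of one another, Pearson's r was 0.55, and across all 15476 genes it was 0.23. All 9 members called with EGCG alone had a positive change beside resveratrol, and 7 of them were called there as well. Among all genes 273 were called with EGCG alone, of which 158 were called and 248 had the same sign beside resveratrol.

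The 7 genes called in both settings were PDK1, LDHA, ALDOC, PGM1, PGK1, SLC2A1 and PGAM1. Beside resveratrol PDK1 was higher by 0.30 ± 0.065 (adjusted p = 0.0029) and LDHA by 0.26 ± 0.024 (adjusted p = 2.1e-09) on the log2 scale in edgeR. SLC16A3 (0.26 ± 0.061 (adjusted p = 0.0087)), GBE1 (0.25), ALDOA (0.21), GAPDH (0.10), HK2 (0.12) and SLC16A1 (0.10) were called beside resveratrol and not with EGCG alone, as was PFKM, which fell (-0.11). Replicates 1 to 3 and 4 to 6 gave 0.36 and 0.12 for ALDOC, 0.21 and 0.078 for SLC2A1, 0.24 and 0.16 for PGM1, 0.28 and 0.13 for ALDOA, 0.15 and 0.055 for GAPDH, 0.055 and 0.14 for SLC16A1 and -0.13 and -0.082 for PFKM. Several of these calls lay near the limit for calling and were lost when 1 library was left out. GBE1 was lost without combination replicate 4 (0.21) or resveratrol replicate 2 (0.20). PFKM was lost without any of combination replicates 2 and 5 (-0.10 and -0.098) and resveratrol replicates 2 and 3 (-0.11 and -0.089). HK2 was lost when any 1 of 7 libraries was left out (0.0997 to 0.12), namely combination replicates 3, 4, 5 and 6 and resveratrol replicates 1, 2 and 3. SLC16A1 was lost for any 1 of 6 (0.074 to 0.094), namely combination replicates 1, 5 and 6 and resveratrol replicates 2, 3 and 4.

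No member was called for an interaction, meaning a change with the combination that differed from the sum of the changes with the single agents. The test called 0 of 33 with edgeR and 0 with DESeq2. Over all genes, 0.207% were called with a positive and 0.0582% with a negative interaction. With shares this low, 0 of 33 does not show that the changes added up. An unadjusted p under 0.05 was found for 6 of the 33 members and for 1195 of all 15476 genes. LDHA's interaction was 0.045 with a 95% interval of -0.024 to 0.11, and ALDOC's was -0.0049 with -0.16 to 0.15. The largest in size was that of PDK3 at -0.39 (-0.73 to -0.054). For the isoform ratios, 8 of 13 differed between the combination and resveratrol, 5 of 13 without resveratrol replicate 6, and the largest was PDK3 to PDK1 at -0.50 ± 0.13 (-0.39 and -0.61 in replicates 1 to 3 and 4 to 6), followed by LDHA to LDHB at 0.30 ± 0.014.

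**Figure D4:**
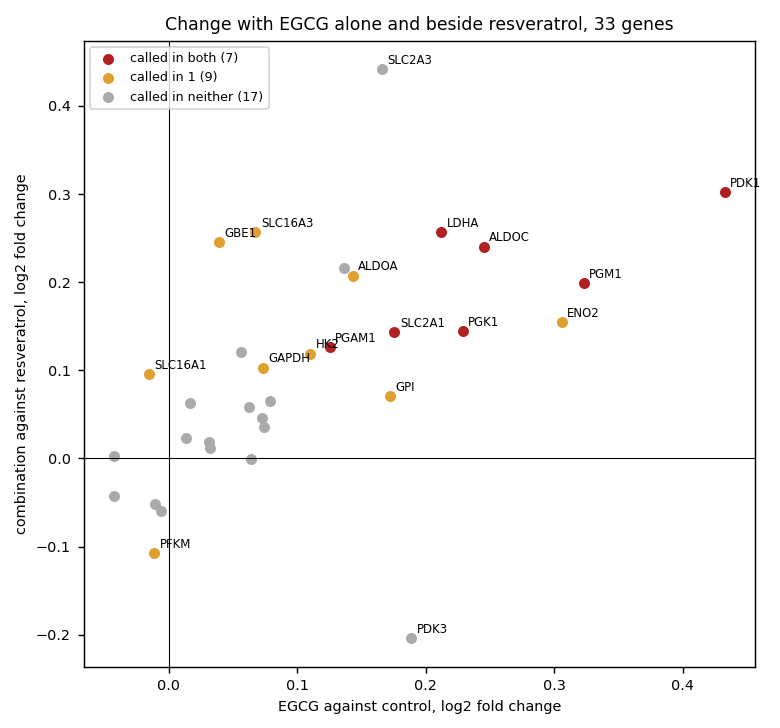
Log2 fold change of the 33 genes with EGCG against control (x axis) and with the combination against resveratrol (y axis), each point 1 gene, coloured by whether it was called in both comparisons (7 genes), in 1 (9) or in neither (17). PDK1, LDHA, ALDOC and PGM1 lie to the upper right, and PDK3 and SLC2A3 depart from the others without being called.

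Set directly against EGCG, the combination was higher in 10 members and lower in 16, where 28.7% and 29.1% of all tested genes were higher and lower. LDHA had the largest decrease, at -0.56 ± 0.024 (adjusted p = 1.6e-20), followed by PGK1 at -0.43 and LDHB at -0.40. ALDOC at 0.66, SLC16A3 at 0.62 and ENO2 at 0.43 differed most on the higher side. PDK1 was lower by 0.25.

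GAPDH is also the reference gene of the study's qPCR, so its values were followed in full. Its normalized counts ran from 26892 to 29547 (median 28434) in the control, from 27204 to 31899.6 (median 29927) with EGCG, from 22250.5 to 24206 (median 23308) with resveratrol and from 24158 to 25579 (median 24843) with the combination. The EGCG libraries overlapped the control, and the resveratrol and combination libraries were all below it. The edgeR log2 fold change was 0.073 ± 0.028 (adjusted p = 0.28) with EGCG, -0.29 ± 0.028 (adjusted p = 5.2e-11) with resveratrol and -0.19 ± 0.028 (adjusted p = 5.0e-07) with the combination. Of 12 genes often used as references, GAPDH included, 0 were called with EGCG by edgeR or DESeq2 (3 at an unadjusted p under 0.05), 2 were higher and 6 lower with resveratrol, and 2 were higher and 8 lower with the combination. Over all tested genes 28.9% were higher and 28% lower with resveratrol and 29.9% in each direction with the combination, so the lower counts were above this background. ACTB was at -0.37 and -0.34 with these treatments and RPLP0 at -0.24 and -0.22, while SDHA at -0.0055 and -0.042 was not called. With library size alone SDHA was called higher with resveratrol.

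Beyond the 33, other genes of the pathway were taken from named lists, drawn up with earlier results of these data known. The shares of all tested genes to set beside their counts are 0.905% higher and 0.859% lower with EGCG, 28.9% higher and 28% lower with resveratrol, and 29.9% in each direction with the combination. Of 20 further glycolysis genes 9 were expressed highly enough to be tested, and 1 was called higher with EGCG, 3 higher and 2 lower with resveratrol, and 2 higher and 2 lower with the combination, close to those shares for both resveratrol and the combination. Only HKDC1 of this list, a hexokinase-like gene, moved by more than any of the 33, at 1.51 ± 0.19 (adjusted p = 2.1e-08) with resveratrol and 1.70 ± 0.19 (adjusted p = 9.0e-10) with the combination (edgeR). PGAM4, the gene called with EGCG (0.14), is a retrocopy of PGAM1, and reads of the pair may not have been separated. Of 12 other glucose and lactate carriers 7 were tested, with 0 called with EGCG by edgeR or DESeq2 (0 at an unadjusted p under 0.05), 4 higher and 1 lower with resveratrol and 3 higher and 2 lower with the combination, of too few genes to set against the background. BSG (basigin), the chaperone of both MCTs, was at -0.15 and -0.083.

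Among 25 other glycogen genes, of which 19 were tested, 0 were called with EGCG by edgeR or DESeq2 (2 at an unadjusted p under 0.05), 6 rose and 5 fell with resveratrol, and 7 rose and 3 fell with the combination. With resveratrol both counts were close to the shares of all genes, and with the combination the 7 were slightly above and the 3 below. GAA, the lysosomal glucosidase that degrades glycogen, rose by 0.61 and 0.51, and PPP1R3C, which targets a phosphatase to glycogen, by 0.37 and 0.61. Of 12 other genes of pyruvate dehydrogenase and mitochondrial pyruvate use, 11 were tested. With EGCG 0 were called by edgeR or DESeq2 (1 at an unadjusted p under 0.05), 7 rose and 3 fell with resveratrol, and 6 rose and 3 fell with the combination, so that the counts of higher genes were above the share of all genes and those of lower genes close to it. MPC1 and MPC2, the subunits of the mitochondrial pyruvate carrier, rose with resveratrol by 0.31 and 0.48, and DLAT, a core subunit of the dehydrogenase, fell by 0.26. PCK2, the mitochondrial enzyme that makes phosphoenolpyruvate, rose by 1.07 ± 0.039 (adjusted p = 1.9e-22) with resveratrol and 1.21 ± 0.039 (adjusted p = 2.5e-24) with the combination (edgeR). Of 14 hypoxia-inducible genes outside glycolysis 13 were tested, of which 7 were higher and 0 lower with EGCG, 8 higher and 2 lower with resveratrol, and 11 higher and 1 lower with the combination. The counts of higher genes were above the shares of all genes in all 3 treatments. However, BNIP3, BNIP3L, P4HA1 and NDRG1 of this list are among the genes that the paper lists as most raised by EGCG. The excess with EGCG is therefore not independent of the choice of the list.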

How the data were processed

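RNA-seq was analysed in 24 libraries of MDA686TU cells, 6 in each of 4 groups taken from the sample labels. Libraries were made with a stranded mRNA kit from total RNA. Per the labels, reads were processed with bcl2fastq 2.17.1.14, Trimmomatic 0.36, FastQC 0.11.5, HISAT2 2.0.4, SAMtools 1.3.1 and DESeq2 1.20.0 on GRCh38. The counting program, annotation release and strand setting are not given in the sources used here. The authors deposited raw counts per gene. The authors' normalized counts, a signal, proved to equal the raw counts over 1 factor per library when checked. The deposited FPKM values were compared with normalized counts over annotated exon length and a constant. They matched within 1% for 81.7% of genes with counts and such a length, but not for all members, PFKP and SLC2A1 being examples. Levels between genes use FPKM, values per library use normalized counts, and tests use raw counts.

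edgeR 4.0.16 in R 4.3.3 was run on all 24 libraries in 1 fit with TMM, filterByExpr and the quasi-likelihood test. Genes were called at a Benjamini-Hochberg adjusted p under 0.1 over 15476 genes and p under 0.05, as in the study's methods. Isoform ratios had 0.5 added to each count and were tested by two-sided exact permutation, written in Python and checked on an example against scipy 1.17.1. DESeq2 1.42.0 was an alternative. The edgeR, DESeq2 and permutation steps were tested on simulated data. Library totals of 7034872 to 11735574 counts leave little counting error for members with many counts and more for SLC2A3 and PDK3, and the SD over libraries includes it. Coordinates are from the GENCODE annotation and promoters from RefSeq, both on GRCh38. RefSeq promoters matched 30 of 33 members.

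The members and lists were chosen with earlier results of these data known. The members given in full were the 5 with the largest called change in each treatment against control, GAPDH, and the isoform partners of these, 17 in all. Alternatives covered normalization, filters, the groups fitted, the replicate number, sets of replicates, thresholds and each library left out.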

Additional observations from a re-analysis of the deposited data

Results flagged for a closer look

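In each group of 6 libraries, a library was singled out when its gap to the nearest other library was too large a share of the group's range by Dixon's test at the 95% level. This was so in 8 of 132 groups of normalized counts, and chance alone gives about 1 in 20. Combination replicate 3 was high for HK1, at 1368 against 1202 to 1228 in the other 5 libraries, and for PYGB, at 3739.7 against 3388 to 3495. Combination replicate 6 was high for PFKFB2, at 643 against 553 to 571, and the call of PFKFB2 with the combination was lost without it. LDHA was high in resveratrol replicate 6, at 5441 against 5125 to 5217, which is still below every control library. PGM1 was low in control replicate 4, at 141 against 171 to 188. PFKL was low in control replicate 2, at 1075 against 1199 to 1251. PFKM was high in resveratrol replicate 3, at 1053 against 965 to 996, and PFKP in EGCG replicate 1, at 1346 against 1249 to 1285. The PGM1 and PFKL calls held when any single library was left out.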

How the results depend on the processing

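No called member or ratio reversed its sign under any alternative run. With EGCG, 9 members were called, against 3 from replicates 1 to 3 alone and 15 at an unadjusted p under 0.05. Between the combination and resveratrol 14 were called, against 9 from replicates 1 to 3 alone, 3 from replicates 4 to 6 alone and 22 at an unadjusted p. For the interaction 0 were called, against 6 at an unadjusted p. Over all 15476 genes these unadjusted counts were 1570 with EGCG, 2811 between the combination and resveratrol and 1195 for the interaction. Counts of called members in the other comparisons stayed within 1.5 times. When each library was left out in turn, the calls were 9 to 12 for EGCG, 24 to 26 for resveratrol, 24 to 28 for the combination, 10 to 16 for the combination against resveratrol and 26 to 27 against EGCG. Isoform ratios between the combination and resveratrol ranged from 5 to 8, the lowest without resveratrol replicate 6.

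Same-numbered replicates were checked for pairing over 36 same-numbered pairs of libraries. Of these, 2 had deviations correlated over 0.1 (range -0.011 to 0.13), and 15 correlated best with their own number. Each library had 6 possible matches in the other group, so 15 is more than equally likely matches would give. However, replicates 1 to 3 and 4 to 6 differed, which can favour matches within a set. The pairs also shared libraries, and whether 15 exceeds chance was not tested. Because the correlations were small, the numbers were not taken to pair the samples in the main fit. The 15 do not count against pairing. With a replicate block 10 members were called with EGCG, 25 with resveratrol, and 4 rather than 8 ratios between the combination and resveratrol. With the block, the smallest exact p for a ratio is 0.0313, so its calls say little on size. Low depth limits SLC2A3, PDK3 and PFKFB4 most, and small changes of these genes were not detectable at this depth.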
